A study of Mus musculus with 30 samples.

Results

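Immediate early transcription factors are the genes that a cell switches on first after a stimulus, before any new protein has been made. The set described here held 10 genes: Fos, Fosb, Jun, Junb, Jund, Egr1, Nr4a1, Atf3, Ier2 and Ccn1. Its members were the probe sets annotated to exactly 1 gene with one of these symbols, which gave 15 of the 12422 non-control probe sets and 10 of the 8251 genes on the array. Microdissected olfactory epithelium, the sheet of nasal tissue that holds the smell-sensing neurons, was profiled on 30 Affymetrix MG-U74Av2 arrays in mice that underwent bilateral olfactory bulbectomy, the removal of both olfactory bulbs. The mutant-labelled groups were SR-A mutant mice, which carry a mutation in the class A scavenger receptor of macrophages (gene Msr1), with 3 arrays each at 0, 2, 8, 16 and 48 h. The wild-type-labelled groups were wild type mice with 3 arrays at each of the same times. The design text gives an age of 6 weeks for both genotypes and names 3 mice of each. Whether the 0 h mice had been operated on, which allele the mutants carry, and whether the 3 arrays of a group came from separate mice is not said in the labels, so the p-values rest on array-to-array spread that may be technical.

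In most tissues these genes, apart from Jund, are silent or low at rest and are transcribed within minutes of calcium entry, growth factor or stress signalling, after which their short-lived messages decay. Fos, Fosb, Jun, Junb and Jund encode subunits of the AP-1 transcription factor, and Atf3 encodes a related stress-induced factor. Egr1 encodes a zinc finger factor, Nr4a1 an orphan nuclear receptor, Ier2 a small nuclear protein, and Ccn1 a secreted matrix protein that is transcribed with the same early timing. Olfactory bulbectomy cuts the axons of the olfactory sensory neurons and is followed by their death and by renewal from basal cells.

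Promoter sequence was read for 8 of the 10 members from RefSeq (mouse build GRCm38.p6), and Egr1 and Ier2 had no entry. Each window was 300 bases, from 250 before to 50 after a start of the gene. For Fosb and Nr4a1 the start used was not the earliest. On both strands, the cAMP response element core TGACG was present in 6 of 8 member windows, against 20.8% of 32851 windows in the table. The AP-1 site TGANTCA was present in 0 of 8, against 7.81%, and the CArG box, the site of serum response factor, in 0 of 8, against 1.63%. The windows of Fos and of the 4 members that were lower after 0 h in both genotypes (Nr4a1, Atf3, Fosb and Ccn1) are shown 5′ to 3′ on the strand of the gene, with each core site, or its reverse complement CGTCA, in capitals. They were chosen after the search and after the expression values were seen. The Fos window lies at chr12:85473640-85473939 (plus strand), Nr4a1 at chr15:101266596-101266895 (plus strand, inside the span of the gene, which has an earlier start), Atf3 at chr1:191183284-191183583, Fosb at chr7:19309996-19310295 and Ccn1 at chr3:145649936-145650235 (all minus strand).
Fos: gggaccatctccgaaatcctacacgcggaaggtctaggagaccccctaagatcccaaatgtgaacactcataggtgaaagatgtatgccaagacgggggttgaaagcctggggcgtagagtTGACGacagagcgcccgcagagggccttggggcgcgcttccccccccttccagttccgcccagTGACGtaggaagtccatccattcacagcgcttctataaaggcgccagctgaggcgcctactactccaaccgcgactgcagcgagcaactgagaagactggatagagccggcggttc
Nr4a1: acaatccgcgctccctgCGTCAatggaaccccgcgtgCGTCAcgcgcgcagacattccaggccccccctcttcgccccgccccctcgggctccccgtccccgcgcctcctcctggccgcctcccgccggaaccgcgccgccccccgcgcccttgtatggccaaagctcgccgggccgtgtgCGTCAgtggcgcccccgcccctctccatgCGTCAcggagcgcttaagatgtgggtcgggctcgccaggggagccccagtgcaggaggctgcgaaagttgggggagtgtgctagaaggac
Atf3: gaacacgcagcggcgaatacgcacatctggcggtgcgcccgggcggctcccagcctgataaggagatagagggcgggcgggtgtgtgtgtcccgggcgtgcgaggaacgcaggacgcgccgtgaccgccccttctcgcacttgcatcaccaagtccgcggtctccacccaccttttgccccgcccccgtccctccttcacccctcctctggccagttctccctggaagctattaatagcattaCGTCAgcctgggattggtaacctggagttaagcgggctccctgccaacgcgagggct
Fosb: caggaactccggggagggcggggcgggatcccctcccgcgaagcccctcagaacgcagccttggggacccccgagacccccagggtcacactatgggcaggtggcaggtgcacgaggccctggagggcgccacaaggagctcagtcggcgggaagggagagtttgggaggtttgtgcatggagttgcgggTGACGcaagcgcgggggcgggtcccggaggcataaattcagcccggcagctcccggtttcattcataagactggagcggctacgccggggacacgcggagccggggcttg
Ccn1: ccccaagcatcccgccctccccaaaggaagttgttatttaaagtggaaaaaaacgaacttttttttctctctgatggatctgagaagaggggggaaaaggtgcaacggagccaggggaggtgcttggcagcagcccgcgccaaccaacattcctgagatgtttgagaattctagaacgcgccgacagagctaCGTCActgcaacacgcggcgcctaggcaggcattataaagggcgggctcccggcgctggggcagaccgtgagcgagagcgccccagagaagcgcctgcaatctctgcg
Core sites were counted from the start used for each window. Those of Fos began at -129 and -66, the Fosb site at -60, the Ccn1 site at -58 and the Atf3 site at -7. Nr4a1 held 4, beginning at -233, -213, -69 and -40. Because Fosb and Nr4a1 have earlier starts, their core sites lie inside the span of the gene. Junb, whose window is not shown, held 1 at -106, and Jun and Jund held none in these windows.

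Values are MAS5 signals, a linear brightness per probe set on which every array was scaled to the same trimmed mean. Of the 15 member probe sets 12 were tested, and each of the 10 genes had at least 1 tested probe set, the brightest of which stands for the gene. The untested ones were a second Fos (161716_at, highest signal 171.2), a second Egr1 (161802_i_at, highest signal 230.8) and a further Atf3 probe set (161645_r_at, highest signal 23.1). Differences are log2 signal with standard errors from 1 limma fit of the 10 groups, and a gene was called at a Benjamini-Hochberg adjusted p under 0.05 over 6968 probe sets. Each comparison with 0 h in a genotype uses the same 3 arrays at 0 h.

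The libraries labelled mutant were not low in Msr1: the signal of 94792_at was 297.5 to 587.4 on the mutant-labelled arrays, against 32.6 to 295.1 on the wild-type-labelled ones. The other Msr1 probe set, 94140_at, was weaker and overlapped, at 103.8 to 347.5 against 45.7 to 184.1. The groups are therefore called by their labels. Omp, the marker of mature olfactory sensory neurons, had signals of 16299.5 to 40154.6 on 27 arrays. The basal cell markers differed: Krt5 was at or below the floor of 113.7 on 28 of 30 arrays and Krt14 on 30. Trp63 had signals of 534.6 to 992.7. The 3 mutant-labelled arrays at 2 h stood apart. Their Omp signal was 128.5 to 16964.3, and their Gapdh 3′ minus 5′ log2 difference, an index of RNA degradation, was 0.15 to 5.59, against -0.31 to -0.13 on the other 27. The same difference for actin was 0.43 to 2.27, against 0.45 to 1.11 on the other 27. By actin only replicate 1, at 2.27, lay above the range of the others. The change from 0 h to the mean of 8, 16 and 48 h, which does not use them, was taken as the main one.

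Against 8, 16 and 48 h the 0 h level was called high for 8 of 10 members in mutant-labelled and 4 of 10 in wild-type-labelled mice. By group mean it was not the peak for most members in either genotype. However, 0 members were called higher at 2 h than at 0 h in either genotype. The mutant-labelled 2 h arrays also stood apart, so a peak at 2 h above 0 h was not shown. Averaged by group, 0 h and 2 h were the top times for 8 of 10 members in mutant-labelled mice (all but Jun and Jund) and for 7 of 10 in wild-type-labelled mice (all but Junb, Jund and Ier2). The highest group mean fell at 2 h for 6 members, at 0 h for 3 and at 48 h for 1 in mutant-labelled mice, and at 2 h for 6 and at 0 h for 4 in wild-type-labelled mice. The lowest fell at 16 h for 6 members in mutant-labelled and 8 in wild-type-labelled mice.

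**Figure D1:**
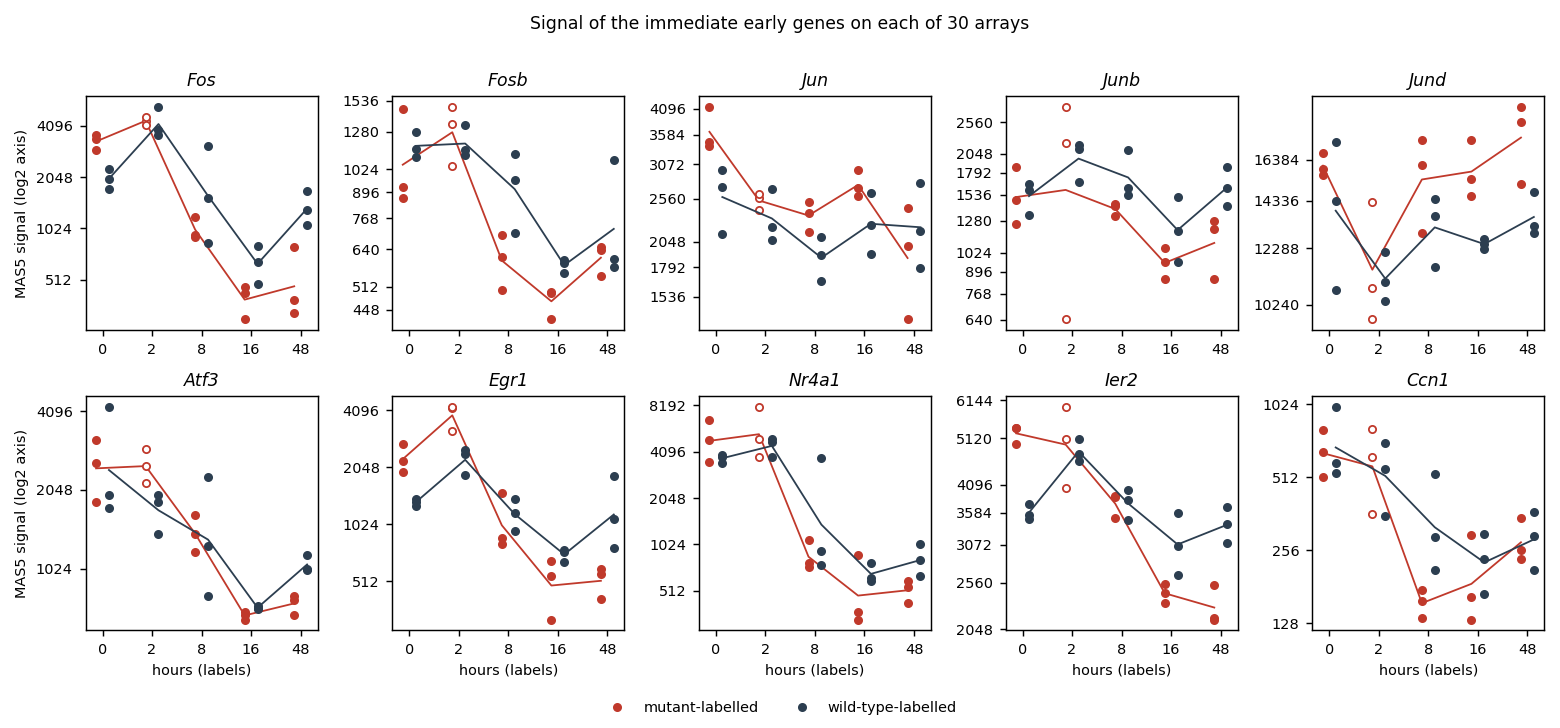
Signal of each member on every array by hour (log2 axis, hours evenly spaced), mutant-labelled in red and wild-type-labelled in dark blue, with lines through the group means of the log2 signal; open red points are the mutant-labelled 2 h arrays. Nr4a1 was 332.4 to 1088.6 on the 9 mutant-labelled arrays at 8, 16 and 48 h, against 3508.0 to 6600.5 on those at 0 h.

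In mutant-labelled mice 8 of 10 members were lower over 8, 16 and 48 h than at 0 h and none was higher, where 1.87% of all tested probe sets were lower. The members that fell were Nr4a1, Fos, Egr1, Ccn1, Atf3, Ier2, Fosb and Jun. Of these, Ccn1 passed the filter only through arrays at 0 or 2 h, in both genotypes. The median difference of the members was -1.20, against 0.01 over all genes. For all 8 the highest of the 9 later arrays lay below the lowest at 0 h, and in wild-type-labelled mice this held for Ccn1 alone. The share of all probe sets that separated in this way was not counted. The separation comes from the same arrays as the calls and is no further evidence. In wild-type-labelled mice 4 of 10 were lower, Nr4a1, Ccn1, Atf3 and Fosb, and none was higher, where 3.06% of probe sets were lower, and the median difference was -0.57, against -0.01 over all genes. The count without wild-type-labelled 0 h replicate 1 was 2, Atf3 and Nr4a1. In the mutant-labelled 0 h group replicate 1 was the highest array for 8 of 10 members and replicate 3 the lowest for 8 of 10, and the mutant-labelled count was 7 without replicate 1 or 2 and 8 without replicate 3. The tissue was bulk, so fewer cells carrying a message and less of it per cell cannot be told apart.

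**Figure D2:**
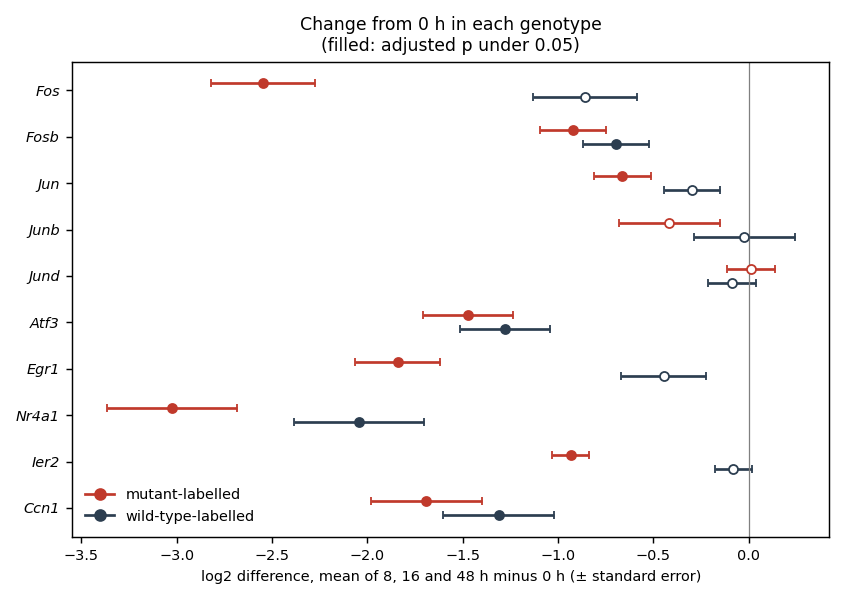
Log2 difference of the mean of 8, 16 and 48 h from 0 h for each member, with standard error, mutant-labelled (red) above wild-type-labelled (dark blue); filled points had an adjusted p under 0.05. Nr4a1 lay farthest to the left in both genotypes, at -3.02 and -2.04, and Jund near 0, at 0.01 and -0.09.

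Nr4a1 (102371_at; chromosome 15) had the largest difference from 0 h of the 10 members in both genotypes. In mutant-labelled mice its signal was 6600.5, 4851.4 and 3508.0 at 0 h, 3789.6, 7999.1 and 4986.6 at 2 h, 769.7, 1088.6 and 735.1 at 8 h, 373.3, 867.2 and 332.4 at 16 h, and 424.0, 542.0 and 594.5 at 48 h. In wild-type-labelled mice it was 3456.4, 3902.1 and 3810.3 at 0 h, 4775.8, 4963.6 and 3776.2 at 2 h, 928.6, 750.1 and 3740.3 at 8 h, 777.8, 623.0 and 589.0 at 16 h, and 809.6, 638.5 and 1028.7 at 48 h. All arrays at 0 and 2 h were high and all later ones low, except wild-type-labelled 8 h replicate 3, which lay in the 0 h range. The log2 difference from 0 h was -3.02 ± 0.34 in mutant-labelled mice (8.14-fold, adjusted p = 4.87e-06) and -2.04 ± 0.34 in wild-type-labelled mice (4.12-fold, adjusted p = 0.000774). The difference between these changes, -0.98 ± 0.48, did not pass the test (adjusted p = 0.368).

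Fos (160901_at; chromosome 12) encodes the AP-1 subunit most used as a sign of neuronal activity. In mutant-labelled mice its signal was 3638.9, 3419.2 and 2945.7 at 0 h, 4404.9, 4146.9 and 4650.4 at 2 h, 1193.4, 916.4 and 932.9 at 8 h, 463.7, 428.7 and 298.1 at 16 h, and 327.5, 798.9 and 389.5 at 48 h. In wild-type-labelled mice it was 1753.7, 2295.5 and 2002.0 at 0 h, 3896.7, 3607.0 and 5298.4 at 2 h, 1534.4, 843.5 and 3104.1 at 8 h, 653.5, 482.4 and 805.2 at 16 h, and 1318.1, 1075.5 and 1692.6 at 48 h. In both genotypes the 2 h arrays were all above the 0 h arrays and the 16 h arrays far below them, while at 48 h the wild-type-labelled arrays were all above the mutant-labelled ones. Against 0 h the mean of 8, 16 and 48 h was -2.55 ± 0.27 in mutant-labelled mice (5.85-fold, adjusted p = 2.03e-06). In wild-type-labelled mice it was -0.86 ± 0.27 and did not pass (adjusted p = 0.0579), but it did at -1.02 without 8 h replicate 3, at -0.92 without 48 h replicate 3 and at -0.87 after quantile normalization. The level at 16 h alone was lower than at 0 h in both, by -3.09 ± 0.33 in mutant-labelled mice (adjusted p = 3.4e-06) and -1.66 ± 0.33 in wild-type-labelled mice (adjusted p = 0.00537).

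Fosb (103990_at; chromosome 7), the other Fos family subunit, had signals of 422.8 to 696.8 on the mutant-labelled arrays at 8, 16 and 48 h, against 1462.1, 923.5 and 863.5 at 0 h. On the wild-type-labelled arrays it had 555.4 to 1119.6 at the later times, against 1278.8, 1103.9 and 1152.3 at 0 h. The mutant-labelled groups did not overlap, and in the wild-type-labelled ones only 8 h replicate 3 reached the 0 h range. The differences were -0.92 ± 0.17 in mutant-labelled mice (adjusted p = 0.00251) and -0.70 ± 0.17 in wild-type-labelled mice (adjusted p = 0.0161). Leaving out 0 h replicate 1 gave -0.69 and no call in mutant-labelled mice, and leaving out 0 h replicate 1 or 3 gave -0.64 or -0.71 and no call in wild-type-labelled mice.

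Of the Jun family Jun passed in mutant-labelled mice. Jun (100130_at; chromosome 4), the usual partner of Fos, had signals of 1363.2 to 2971.1 on the 9 later arrays in mutant-labelled mice, all below the 3373.5, 4138.9 and 3442.6 at 0 h. On the wild-type-labelled arrays Jun had 1668.8 to 2787.4 later, against 2129.5, 2982.2 and 2721.8 at 0 h, so that the groups overlapped. The difference was -0.66 ± 0.15 in mutant-labelled mice (adjusted p = 0.0109), which became -0.57 and lost its call without 0 h replicate 2, and -0.30 ± 0.15 in wild-type-labelled mice (adjusted p = 0.248). The difference between these changes, -0.37 ± 0.21, did not pass (adjusted p = 0.452). Junb (102363_r_at; chromosome 8), whose protein is a weaker activator than Jun, ranged over all times from 641.4 to 2846.0 and did not pass in either genotype (-0.42 ± 0.27 in mutant-labelled and -0.02 ± 0.27 in wild-type-labelled mice). Its other probe set, 102362_i_at, did not pass either, at -0.51 ± 0.43 and 0.49 ± 0.43, and the signs of the genotypes differed there. Jund (102364_at; chromosome 8), the member of the family that most cells express without a stimulus, ranged from 9761.8 to 19440.9, and its differences were 0.01 ± 0.13 in mutant-labelled and -0.09 ± 0.13 in wild-type-labelled mice.

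Atf3 (104155_f_at; chromosome 1), which neurons induce after axon injury, was measured by a probe set whose suffix marks probes that may match related sequences. In mutant-labelled mice it had 653.8, 699.1 and 681.3 at 16 h, against 3179.4, 2603.0 and 1837.9 at 0 h. The wild-type-labelled arrays had 715.8, 736.1 and 725.1 at 16 h, against 1739.6, 1967.9 and 4253.4 at 0 h. The 16 h arrays were all well below 0 h in both genotypes, and 0 h replicate 3 was the highest wild-type-labelled value. The difference of 8, 16 and 48 h from 0 h was -1.47 ± 0.24 in mutant-labelled mice (adjusted p = 0.00057) and -1.28 ± 0.24 in wild-type-labelled mice (adjusted p = 0.00161). The other tested Atf3 probe set, 104156_r_at, fell too, by -1.81 ± 0.22 in mutant-labelled mice and -0.84 ± 0.22 in wild-type-labelled mice. Its wild-type-labelled call was lost at -0.53 without 0 h replicate 3. The signal of 104156_r_at was at or below the floor of 113.7 on 3 arrays, all mutant-labelled at 16 or 48 h.

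Egr1 (98579_at; chromosome 18) and Ier2 (99109_at; chromosome 8) fell in mutant-labelled mice. Egr1 had signals of 2707.8, 2207.2 and 1941.3 at 0 h in mutant-labelled mice, 3174.4, 4245.7 and 4270.0 at 2 h, 1493.3, 802.1 and 864.4 at 8 h, 321.0, 656.1 and 543.8 at 16 h, and 593.4, 555.8 and 413.0 at 48 h. In wild-type-labelled mice Egr1 had 1277.8, 1393.6 and 1345.1 at 0 h, 1864.6, 2522.2 and 2413.5 at 2 h, 1179.1, 945.8 and 1396.7 at 8 h, 752.7, 648.2 and 731.8 at 16 h, and 1086.0, 771.3 and 1833.0 at 48 h. The 16 h arrays were below every 0 h array in both genotypes, whereas at 48 h a wild-type-labelled array was above all 3 of its 0 h arrays. The difference of the later times from 0 h was -1.84 ± 0.22 in mutant-labelled mice (adjusted p = 1.48e-05) and -0.45 ± 0.22 in wild-type-labelled mice (adjusted p = 0.251).

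Ier2 had 5381.1, 5369.6 and 4993.6 at 0 h in mutant-labelled mice, 4037.2, 5111.3 and 5951.5 at 2 h, 3488.0, 3867.5 and 3891.1 at 8 h, 2550.7, 2433.8 and 2323.2 at 16 h, and 2163.5, 2529.4 and 2145.9 at 48 h. The wild-type-labelled arrays had 3475.4, 3738.0 and 3547.7 at 0 h, 4747.0, 4588.0 and 5100.5 at 2 h, 3987.5, 3467.6 and 3805.6 at 8 h, 3058.6, 2662.5 and 3575.6 at 16 h, and 3393.4, 3099.5 and 3679.1 at 48 h. The mutant-labelled arrays at 0 h were all above the wild-type-labelled ones at 0 h, and at 16 and 48 h they were all below the wild-type-labelled arrays of the same time. The difference of the later times from 0 h was -0.93 ± 0.10 in mutant-labelled mice (adjusted p = 1.93e-06) and -0.08 ± 0.10 in wild-type-labelled mice (adjusted p = 0.688).

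Ccn1 (92777_at; chromosome 3), the secreted protein of the set, was low enough that only 7 of 30 arrays exceeded the pooled median of 572.0. All 7 were at 0 or 2 h, so Ccn1 passed the filter only through the times at which it was high. In mutant-labelled mice it had 132.7 to 349.0 on the 9 later arrays, against 801.2, 511.8 and 653.9 at 0 h. In wild-type-labelled mice it had 168.9 to 528.2 later, against 999.0, 589.5 and 535.7 at 0 h. The later arrays lay below all 0 h arrays in both genotypes. The difference was -1.69 ± 0.29 in mutant-labelled mice (adjusted p = 0.00114) and -1.31 ± 0.29 in wild-type-labelled mice (adjusted p = 0.00706), the second of which lost its call at -1.03 without wild-type-labelled 0 h replicate 1.

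At 2 h, on the arrays that stood apart, 2 members were lower than 0 h in mutant-labelled mice, where 10.3% of all probe sets were, and both belonged to the Jun family, Jun at -0.52 ± 0.18 (adjusted p = 0.0494) and Jund at -0.49 ± 0.15 (adjusted p = 0.0312). Jun and Jund both lost their calls when any 1 array was left out, except that Jund kept its own without 2 h replicate 2. In wild-type-labelled mice none was lower at 2 h (0.144% of all probe sets) or higher in the limma test. At an unadjusted p under 0.05, 3 were higher there and 0 lower, namely Fos at 1.07 ± 0.33 (adjusted p = 0.101), Egr1 at 0.75 ± 0.27 (adjusted p = 0.155) and Ier2 at 0.42 ± 0.12 (adjusted p = 0.0826). In that comparison 1168 of 6968 probe sets had such an unadjusted p in either direction.

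At 8 h, 6 members were lower than 0 h in mutant-labelled mice (Ccn1, Egr1, Fos, Fosb, Ier2 and Nr4a1), against 0.617% of all probe sets. The count was 3, Ccn1, Fos and Nr4a1, without mutant-labelled 0 h replicate 1 or 2 or without 8 h replicate 2 or 3. In wild-type-labelled mice 0 were lower at 8 h in the limma test, against 0.0287% of all probe sets, and 4 were at an unadjusted p under 0.05. Of 6968 probe sets 543 had such an unadjusted p in either direction. Within the wild-type-labelled 8 h group replicate 3 was the highest array for 8 of 10 members and replicate 2 the lowest for 8 of 10. Without replicate 3 the count was 2, Atf3 and Nr4a1. Its Gapdh 3′ minus 5′ difference was -0.31, the lowest of the 27 arrays outside the group that stood apart.

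At 16 h, 7 members were lower in mutant-labelled mice (1.82% of all probe sets) and 6 in wild-type-labelled mice (3.04%). Those of both genotypes were Atf3, Ccn1, Egr1, Fos, Fosb and Nr4a1, and Ier2 was the other in mutant-labelled mice. At 48 h, 8 were lower in mutant-labelled mice (4.98%), the same 7 and Jun at -0.95 ± 0.18. In wild-type-labelled mice 4 were (7.08%): Nr4a1 at -2.20 ± 0.42, Ccn1 at -1.26 ± 0.36, Atf3 at -1.20 ± 0.29 and Fosb at -0.71 ± 0.21. The wild-type-labelled count at 48 h dropped to 2 when 1 of 4 arrays was left out: replicate 1 or 3 at 0 h, or replicate 1 or 2 at 48 h.

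**Figure D3:**
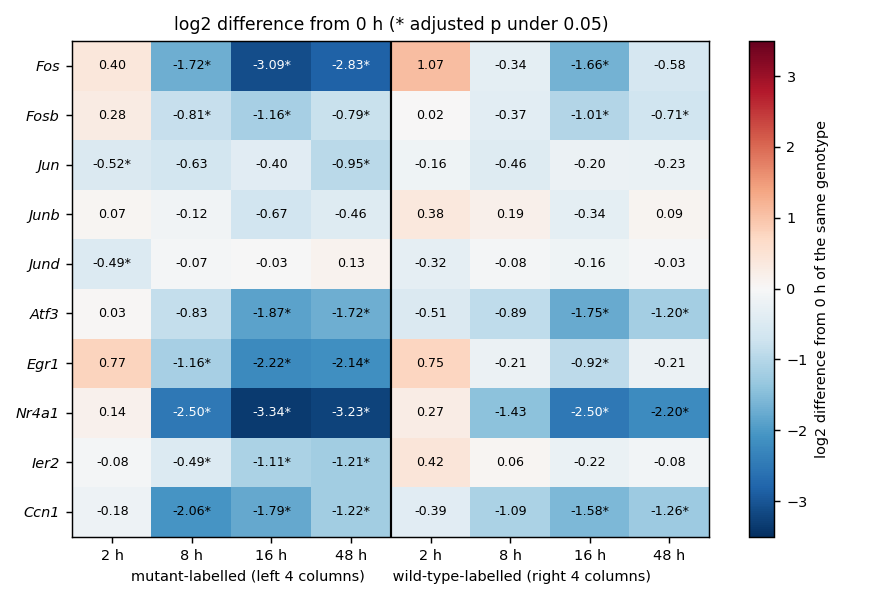
Log2 difference of each later time from 0 h of the same genotype, mutant-labelled in the left columns and wild-type-labelled in the right; blue is lower, red higher, and a star marks an adjusted p under 0.05. Fos at 48 h was -2.83 in mutant-labelled and -0.58 in wild-type-labelled mice.

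Steps between neighbouring times were compared after seeing the data. From 2 to 8 h, 7 members fell in mutant-labelled mice (11.4% of all probe sets, with the 2 h arrays that stood apart), and Jund was higher. In wild-type-labelled mice 2 fell over that step (0.373%), Fos by -1.40 ± 0.33 and Nr4a1 by -1.70 ± 0.42. Both calls were lost without any 1 of the 3 arrays at 2 h or without 8 h replicate 1 or 2. From 8 to 16 h, 3 fell in mutant-labelled mice (1.19%), Fos, Egr1 and Ier2, of which Ier2 alone passed without any 1 of the 3 arrays at 8 h or without 16 h replicate 3. Over that step Fos fell in wild-type-labelled mice (0.603%), by -1.33 ± 0.33 (adjusted p = 0.0486). That call was lost without any 1 of the compared arrays except 8 h replicate 2, without which Atf3 passed as well. From 16 to 48 h none fell or rose in the limma test, against 3.34% of all probe sets lower in mutant-labelled and 1.88% in wild-type-labelled mice. At an unadjusted p under 0.05, 1 was lower in mutant-labelled mice, Jun at -0.55 ± 0.18, which passed the adjusted test without 48 h replicate 1. In wild-type-labelled mice 2 were higher at that p, Fos at 1.08 ± 0.33 (adjusted p = 0.0751) and Egr1 at 0.70 ± 0.27 (adjusted p = 0.173). Over this step 1467 of 6968 probe sets in mutant-labelled and 1153 in wild-type-labelled mice had such an unadjusted p in either direction.

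Taking 2 h as the starting level, a comparison added after seeing the data, gave the same 7 members lower over 8, 16 and 48 h in both genotypes: Fos, Egr1, Nr4a1, Atf3, Ccn1, Fosb and Ier2. Jund was higher in mutant-labelled mice, at 0.50 ± 0.13. The background was 18.0% of all probe sets in mutant-labelled mice, whose 2 h arrays stood apart, and 5.14% in wild-type-labelled mice. In wild-type-labelled mice Nr4a1 differed by -2.31 ± 0.34, Fos by -1.93 ± 0.27 (adjusted p = 8.64e-05), Egr1 by -1.19 ± 0.22 (adjusted p = 0.00148) and Ier2 by -0.50 ± 0.10 (adjusted p = 0.00194). Fosb at -0.72 ± 0.17, Ccn1 at -0.92 ± 0.29 and Atf3 at -0.77 ± 0.24 also passed, but lost their calls without 2 h replicate 1, which left 4.

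Between genotypes at 0 h only Ier2 of the 10 passed, at 0.55 ± 0.12 higher in mutant-labelled mice (adjusted p = 0.00349), where 18.3% of all probe sets differed. Egr1 at 0.76 ± 0.27 (adjusted p = 0.0552), Jun at 0.49 ± 0.18 (adjusted p = 0.0594) and Fos at 0.73 ± 0.33 (adjusted p = 0.128) did not pass. Their mutant-labelled arrays at 0 h were all above the wild-type-labelled ones. How many of all probe sets separated so was not counted. At 2 h (9.03% of all probe sets), 8 h (2.94%) and 16 h (8.42%) 0 members differed in the limma test, with 1, 2 and 3 at an unadjusted p under 0.05. Of 6968 probe sets 1616, 1439 and 1632 were at that unadjusted p at these times. At 16 h the second Atf3 probe set, 104156_r_at, was lower in mutant-labelled mice by -0.98 ± 0.27 (adjusted p = 0.0274). Of its 3 mutant-labelled arrays at 16 h, 2 were at or below the floor, so this size depends on the floor. At 48 h 3 members were lower in mutant-labelled mice (16.3% of all probe sets in either direction): Fos by -1.52 ± 0.33 (adjusted p = 0.00302), Egr1 by -1.16 ± 0.27 (adjusted p = 0.00503) and Ier2 by -0.57 ± 0.12 (adjusted p = 0.00197). In a fit of these 2 groups alone Fos was the only one of the 3 to pass.

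The test of the difference itself gave the same 3 members for the change from 0 h to 48 h, against 2.86% of all probe sets. The change was lower in mutant-labelled than in wild-type-labelled mice by -2.25 ± 0.47 for Fos (adjusted p = 0.0111), by -1.92 ± 0.39 for Egr1 (adjusted p = 0.00794) and by -1.12 ± 0.17 for Ier2 (adjusted p = 0.000539). This comparison, and those for the changes to 8 and 16 h, were added after seeing the data. For the change to 8 h 0 members differed between the genotypes in the limma test, as did 0.0% of all probe sets. At an unadjusted p under 0.05 were 3 members and 572 of 6968 probe sets. The counts of 6 and 0 members called at 8 h therefore do not show that the genotypes differed then. For the change to 16 h Ier2 passed (-0.89 ± 0.17, adjusted p = 0.0385), against 0.115% of all probe sets. That call was lost without any 1 of 10 of the 12 compared arrays, all but wild-type-labelled 16 h replicate 2 and mutant-labelled 16 h replicate 1. For the mean change over 8, 16 and 48 h Ier2 passed (-0.85 ± 0.14, adjusted p = 0.00813), against 0.1% of all probe sets. Fos (-1.69 ± 0.39) and Egr1 (-1.40 ± 0.32) both had an adjusted p of 0.0916 there. Without wild-type-labelled 0 h replicate 1 the count was 0, and it was 2 when the array left out was wild-type-labelled replicate 2 or 3 at 8 h or replicate 2 at 48 h, or mutant-labelled replicate 1 at 8 h, replicate 2 at 16 h or replicate 2 at 48 h.

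Members followed one another to different degrees over the 9 groups other than the mutant-labelled 2 h group. Described by Pearson's r between a member's group means and the average of the other members, Nr4a1 had 0.98, Fos 0.96, Egr1 0.95, Fosb 0.94, Atf3 0.93, Ier2 0.89, Ccn1 0.83 and Junb 0.78. Jun had 0.42 and Jund -0.39. The same groups carry every gene, so these values describe a shared course and are no test.

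Among 5386 other genes, the 10 whose group means were most like the members' average over the same 9 groups were Pim3, Rnf138, Orc2, Errfi1, Gadd45g, Cytip, Wsb1, Gm10046, Smim10l1 and Mrps11, with r between 0.90 and 0.97. Pim3 encodes a serine/threonine kinase, Rnf138 a ubiquitin ligase, Orc2 a subunit of the origin recognition complex, Errfi1 an inhibitor of epidermal growth factor receptor signalling and Gadd45g a stress-induced growth arrest protein. Their ranges over the groups differed: Errfi1 spanned 1.06 on the log2 scale, Cytip 0.91, Pim3 0.88, Gadd45g 0.86 and Orc2 0.26. With the mutant-labelled 2 h group included, 7 of the 10 stayed among the first 10, and Pim3 went to r = 0.45.

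Of 58 other immediate early genes listed, 39 were tested, and over 8, 16 and 48 h against 0 h 3 were lower and 1 higher in mutant-labelled mice, with a median of -0.12, against 0.01 over all genes. Zfp36, which destabilises messages, differed by -0.86 ± 0.15, Rgs2, a regulator of G protein signalling, by -0.67 ± 0.14, and Dusp1, a MAP kinase phosphatase, by -0.60 ± 0.13, while Gadd45b was higher by 0.94 ± 0.16. In wild-type-labelled mice 1 was lower, Maff, a small Maf factor, at -0.98 ± 0.17, and 2 were higher, Ier3 at 0.82 ± 0.23 and Socs3, an inhibitor of cytokine signalling, at 0.63 ± 0.19, with a median of -0.02, against -0.01 over all genes. Counting calls and misses alike, 27 of the 39 had a difference below 0 in mutant-labelled and 22 in wild-type-labelled mice. Per1, a clock gene named after its values were seen, was at -1.08 in mutant-labelled and -0.90 in wild-type-labelled mice and did not pass in either.

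Of 25 partners of the AP-1 and CREB families, 13 were tested. In mutant-labelled mice 2 were lower, Crem, a cAMP-responsive modulator, at -1.01 ± 0.16 and Atf4 at -0.33 ± 0.09. In wild-type-labelled mice 3 were lower, Maff, Crem at -0.55 ± 0.16 and Mafg at -0.44 ± 0.13. Of 46 genes upstream in the MAP kinase and serum response factor pathways, 21 were tested, and 0 passed in either genotype, with medians of 0.07 in mutant-labelled and 0.03 in wild-type-labelled mice.

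**Figure D4:**
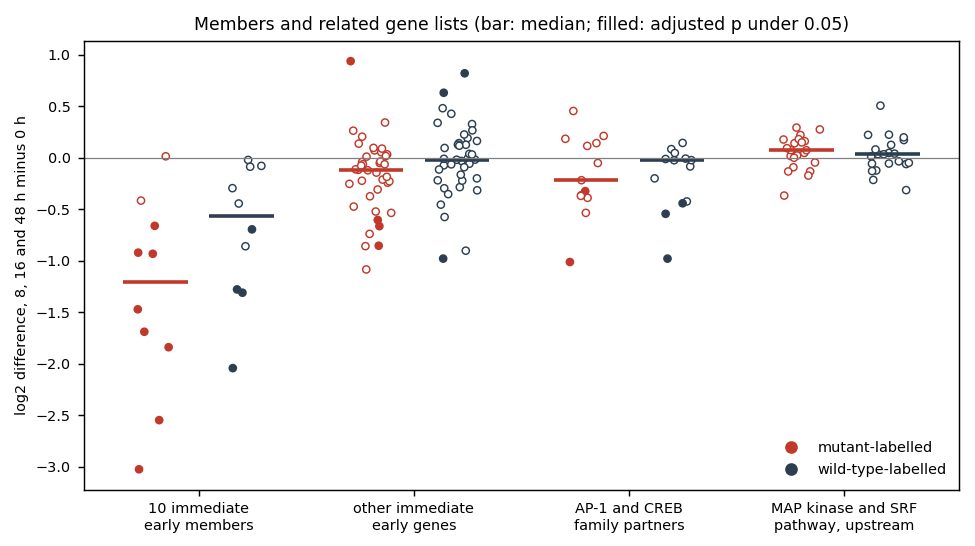
Log2 difference of 8, 16 and 48 h from 0 h for each tested gene of the members and of 3 related lists, mutant-labelled (red) left of wild-type-labelled (dark blue); bars are medians and filled points had an adjusted p under 0.05. The members' medians were -1.20 and -0.57, and those of the other immediate early genes -0.12 and -0.02.

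Markers of other cells moved over the same comparison in part. Of 8 tested fibroblast and matrix markers 3 were lower in mutant-labelled and 5 in wild-type-labelled mice, Col1a2 by -0.84 ± 0.18 in mutant-labelled and -1.19 ± 0.18 in wild-type-labelled mice, and none of the 8 was at the floor on any array. Signals were summed over the 9 such markers on the array, tested or not. In mutant-labelled mice the sum was 72656 to 107755 at 48 h and 130449 to 143045 at 0 h. In wild-type-labelled mice it was 42515 to 55207 at 48 h and 103513 to 130709 at 0 h. At 48 h that sum was lower on the wild-type-labelled than on the mutant-labelled arrays. Of 14 tested macrophage and granulocyte markers 0 passed in mutant-labelled mice and 2 were higher in wild-type-labelled mice, Lyz2 by 0.92 ± 0.22 and Tyrobp by 0.55 ± 0.16. The sum over the 24 on the array, tested or not, was 61686 to 92509 at 48 h in mutant-labelled mice. At 0 h it was 58280 to 66043 there. In wild-type-labelled mice it was 89394 to 105971 at 48 h and 57679 to 67938 at 0 h. The part of these cells in the members' values was not tested.

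Markers of the mature sensory neurons, the main cell type of the tissue, had lower signals at 48 h than at 0 h. The summed signal of the 6 tested neuron markers was 76123 to 88479 at 48 h, against 99097 to 118269 at 0 h in mutant-labelled mice, and 64820 to 74740 at 48 h, against 86767 to 101544 at 0 h in wild-type-labelled mice, so that the groups did not overlap in either genotype. Omp had 19230.3 to 26773.0 at 48 h, against 32772.4 to 36515.7 at 0 h in mutant-labelled mice, and 16299.5 to 17922.8 at 48 h, against 27105.5 to 31604.6 at 0 h in wild-type-labelled mice. At 8 and 16 h the summed signal overlapped the 0 h range in both genotypes, at 111573 to 129811 at 16 h in mutant-labelled and 89780 to 93293 at 16 h in wild-type-labelled mice. The part of the neurons in the members' values was not tested at any time. Over 8, 16 and 48 h together 0 of the 6 passed in mutant-labelled mice, and in wild-type-labelled mice Adcy3 was lower (-0.51 ± 0.13) and Gnb1 higher (1.12 ± 0.21). Of 10 tested markers of other nasal cells Krt8 was higher in mutant-labelled mice (0.40 ± 0.11), and in wild-type-labelled mice Icam1 (1.26 ± 0.38) and Krt18 (0.38 ± 0.09) were higher and Ncam1 lower (-0.34 ± 0.10). Of 6 endothelial markers Cldn5 was higher in wild-type-labelled mice (0.69 ± 0.18) and 0 passed in mutant-labelled mice. Of 3 red blood cell markers 0 passed in either genotype, and none of the 12 skeletal muscle markers was bright enough to be tested.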

How the data were processed

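RNA of microdissected olfactory epithelium was measured on 30 arrays in 10 groups of 3. The deposited values were MAS5 signals on a linear intensity scale, with 1 value for each probe set on an array; the submitters' processing notes name MAS5 and give no version. The 2% trimmed means of the arrays were 1500.7 to 1500.9, so the authors' scaling was read from the values. No batch or scan order is given in the labels.

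Probe sets were named through the platform's annotation (10833 with 1 gene, 396 with several, 1193 with none), with symbols and positions from RefSeq GRCm38.p6 (10817 matched by gene identifier). Signals were floored at 113.7, the 25th percentile of all signals, and taken to log2. Probe sets above the pooled median of 572.0 on at least 3 arrays were tested (6968; 5454 were not). Group means were fitted in limma 3.58.1 (R 4.3.3) with two-sided moderated tests and Benjamini-Hochberg adjustment. The fit was tested on simulated data. The number of arrays limits the precision.

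The members and the gene lists were chosen with earlier results of these data known. From a list, up to 4 called genes with the largest changes in each genotype were named, and the 10 genes most like the members by r. Promoters holding a CArG box were to be printed, and there were none.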

Additional observations from a re-analysis of the deposited data

Results flagged for a closer look

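The change from 0 h differed between the genotypes, by a test of the difference itself in the limma fit, in 6 results, each given as mutant-labelled minus wild-type-labelled on the log2 scale. For the change to 48 h Ier2 differed by -1.12 (adjusted p = 0.000539), Egr1 by -1.92 (adjusted p = 0.00794), Fos by -2.25 (adjusted p = 0.0111) and the second Atf3 probe set, 104156_r_at, by -1.42 ± 0.38 (adjusted p = 0.0439). The second Atf3 probe set was at or below the floor on 1 of its 3 mutant-labelled arrays at 48 h. The brighter Atf3 probe set differed by -0.52 ± 0.41 and did not pass (adjusted p = 0.559). For Ier2 the change to 16 h differed by -0.89 (adjusted p = 0.0385) and the mean change over 8, 16 and 48 h by -0.85 (adjusted p = 0.00813). Groups of 3 arrays are too small for a test of single outlying arrays.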

How the results depend on the processing

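Of the counts of members called, those over 8, 16 and 48 h, at 16 h and at 48 h against 0 h in mutant-labelled mice, and at 16 h in wild-type-labelled mice, stayed within 1.5 times under every alternative run (no filter, a pseudocount of 16, quantile normalization, a variance trend, fewer groups, the replicate block and leaving out single arrays). At 2 h in mutant-labelled mice the count of 2 became 1 with no filter, 1 after quantile normalization, 1 with the replicate block and 0 in a fit of the groups compared, and 0 to 1 without single arrays. Leaving out single arrays gave 3 to 5 at 8 h in mutant-labelled mice, and in wild-type-labelled mice 2 to 5 over 8, 16 and 48 h, 0 to 2 at 8 h, 2 to 4 at 48 h and 4 to 7 against 2 h. For the genotype difference in the mean later change it gave 0 to 2. The genotype difference at 0 h became 2 members after quantile normalization and 3 in a fit of the groups compared, and that at 48 h became 1 in a fit of the 2 groups alone. No value of a member changed sign in a called result. Quantile normalization moved the median of all genes by under 0.1 in every contrast. Same-numbered arrays did not deviate together, with r from -0.35 to 0.35 over 135 pairs, 17 of them over 0.1. Of 30 arrays 6 were closest to those of their own number. The main fit did not pair arrays by number. This check cannot show whether same-numbered arrays shared a mouse or a processing run. The replicate block also lowered the wild-type-labelled count of the 2 to 8 h step to 1 and of the 8 to 16 h step to 0. With no filter the 8 to 16 h step had 1 member in mutant-labelled mice, and both wild-type-labelled steps had 0, as in a fit of the groups compared. Ier2 differed between genotypes at 16 h when the mutant-labelled arrays at 2 h were left out. Weak signals of Ccn1, of the second Atf3 probe set and of the untested probe sets limit what can be said of them.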
